A study of Arabidopsis thaliana with 8 samples.

Results

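GLR3.1 to GLR3.7, RBOHD, RBOHF and TPC1 are 10 Arabidopsis thaliana genes for ion channels and oxidases known from long-distance wound signalling. They were chosen by their locus codes, and all 10 had a probe among the 21500 genes on the array. The GLR3 codes are AT2G17260 (GLR3.1), AT4G35290 (GLR3.2), AT1G42540 (GLR3.3), AT1G05200 (GLR3.4), AT2G32390 (GLR3.5), AT3G51480 (GLR3.6) and AT2G32400 (GLR3.7), and those of the others are AT5G47910 (RBOHD), AT1G64060 (RBOHF) and AT4G03560 (TPC1). The clade 3 glutamate receptor-like (GLR) proteins are cation channels opened by amino acids. When a leaf is damaged, glutamate reaches the apoplast, GLR3.3 and GLR3.6 carry a wave of depolarization and cytosolic calcium along the vasculature, and jasmonate genes such as JAZ10 rise in distant leaves. RBOHD and RBOHF are plasma membrane NADPH oxidases that make apoplastic superoxide, are activated by calcium and by phosphorylation, and carry a wave of reactive oxygen from cell to cell. TPC1 is the slow vacuolar cation channel, known for supporting calcium waves that travel from roots to shoots.

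Seedlings of the ecotype Columbia-0 were 13 days old when a razor blade was used to cut the primary root 5 mm below the shoot base, and their shoots were compared with those of unwounded seedlings. Shoots were taken 30 min or 360 min after the cut, and the unwounded shoots of each time were hybridized on the same arrays as the wounded ones. All plants were wild type and had grown on agar medium with sucrose under long days. Each time had 2 biological replicates, and each replicate was hybridized on 2 arrays with the Cy3 and Cy5 dyes exchanged, which gave 8 arrays. The question was which genes of the shoot respond to a wound in the root. The cut was made to the root and only the shoot was measured, so the values are transcript levels in tissue away from the wound. The labels do not say whether a sample pooled several seedlings, nor whether the replicates were grown separately, and p-values measure the spread between these few samples.

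Values are log2 ratios of wounded over unwounded shoots, with the mean of a dye-exchanged pair as 1 replicate. A gene was called changed at an adjusted p under 0.05 in limma's test, with Benjamini-Hochberg adjustment over all genes tested. The arrays of 30 min were dimmer, their median red signal being 184 to 271 where those of 360 min had 323 to 431, and time and array brightness cannot be told apart. All 5 shoot markers, among them RBCS1A for a Rubisco subunit, were well above background in every measurement. Of 8 root markers, 5 were well above background in every measurement of unwounded shoots at 30 min and 8 at 360 min, while IRT1 was not above background on any array of 30 min. In the test over all genes 0 of these 8 root markers passed at either time, and their summed level spanned 1614 to 2361 in unwounded and 1632 to 2214 in wounded shoots at 30 min. At 360 min the ranges were 2161 to 2709 and 2210 to 2466. In whole shoots, fewer cells of a type and less RNA per cell cannot be told apart.

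As processed here, the RBOHD transcript was about doubled in the shoot 30 min after the root was cut. Its log2 ratio was 0.99, and 0.68 to 1.64 under the alternative settings. No other gene of the 10 was called at that time. Of the 9 genes that could be tested, 1 rose and 0 fell, while 4.52% of all 19177 genes tested were called higher and 2.16% lower. At 360 min 0 of the 9 were called, where 3.08% of all 19146 genes were called higher and 4.22% lower. With limma's p unadjusted, 4 of the 9 were under 0.05 at 30 min (GLR3.3, GLR3.6, GLR3.7 and RBOHD) and 3 at 360 min (GLR3.5, GLR3.7 and TPC1), against 16.2% and 21.3% of all genes. The 9 log2 ratios had a median of 0.05 at 30 min and of 0.09 at 360 min, beside -0.0013 and 0.0046 over all genes. GLR3.2 and RBOHF, which were not above background at 30 min, are among the 9. At both times the median is the GLR3.2 ratio itself, so the 30 min median comes from background signals and is not read as a shift.

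**Figure D1:**
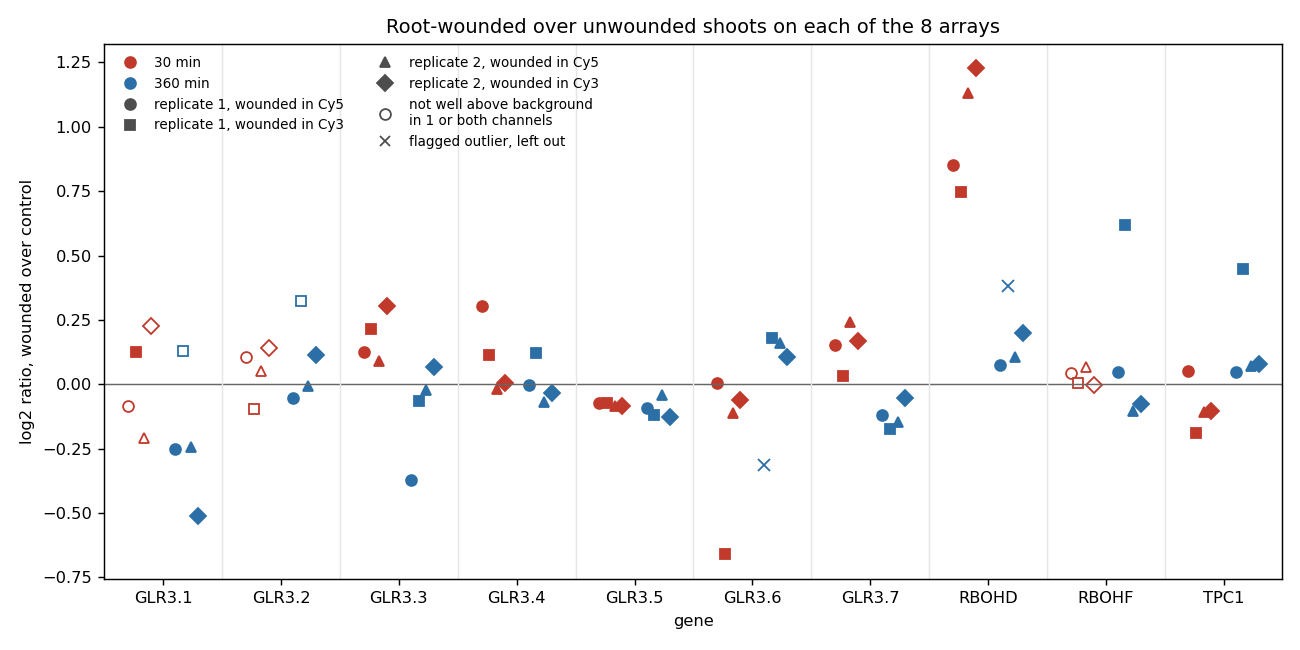
The plot gives the log2 ratio of wounded over unwounded shoots (vertical axis) on each of the 8 arrays for the 10 genes (horizontal axis), red for 30 min and blue for 360 min, with the marker shape for replicate and dye. RBOHD lies between 0.75 and 1.23 on the 4 arrays of 30 min, while open markers show spots not well above background and crosses show flagged spots that were left out.

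RBOHD is the oxidase that produces most of the oxidative burst in leaves. On the 4 arrays of 30 min its log2 ratio was 0.85 and 0.75 in replicate 1 and 1.13 and 1.23 in replicate 2, in each case with the wounded RNA first in Cy5 and then in Cy3. The scanned signals behind them were 254 in wounded against 127 in unwounded shoots and 187 against 175 in replicate 1, and 477 against 176 and 293 against 244 in replicate 2, over local backgrounds of 86 to 119. Every array thus had RBOHD higher in wounded shoots, also where the wounded RNA carried the dimmer dye, and all 8 signals were well above background.

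The RBOHD log2 ratio at 30 min was 0.99 ± 0.27 (SD, n = 2), which is 1.99-fold, with a standard error of 0.10 and a 95% interval of 0.73 to 1.25. Its adjusted p was 0.00820, and it ranked at position 155 from the top of 19177 genes. Without replicate 2 the log2 ratio was 0.80 and the call was lost. With 1 value left at each time RBOHD had no spread of its own in that fit. The loss therefore does not tell whether the call rests on that replicate. Without replicate 1 the log2 ratio was 1.18. On the authors' log ratios, which have no offset added to dim signals, the same gene was at 1.64.

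At 360 min RBOHD was not called. Its log2 ratios were 0.07 and 0.38 in replicate 1 and 0.11 and 0.20 in replicate 2, and the value of 0.38 came from a spot flagged as an outlier. The pair of replicate 1 therefore gave no value, and the log2 ratio of 0.15 rests on 1 replicate, with a 95% interval of -0.21 to 0.52 and an adjusted p of 0.614. No array of 360 min reached the lowest value of 30 min.

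The difference of the RBOHD log2 ratios, 360 minus 30 min, was -0.84 with a 95% interval of -1.28 to -0.39. Its adjusted p was 0.0628, which missed the threshold. Where the pair of replicate 1 took the value of its unflagged array, an alternative chosen after seeing the data, the difference was -0.88 with an adjusted p of 0.0226. It was negative under all 17 alternatives and past the threshold under 10 of them, as the plot of RBOHD by processing setting shows. Among those 10 is the replicate block, under which RBOHD had no spread of its own left. Leaving out replicate 1 of 360 min is also among them. RBOHD had no value from that replicate, so its own values stayed the same and that fit is no separate check.

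**Figure D2:**
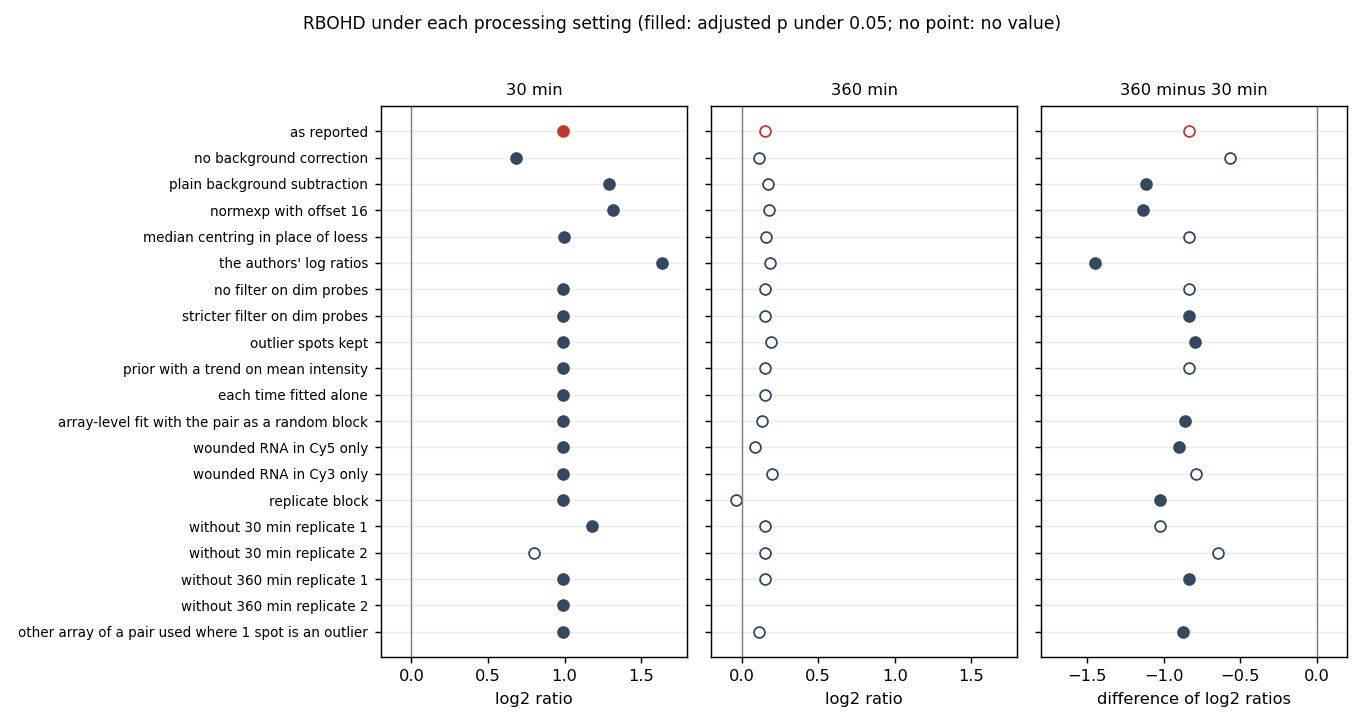
The plot gives RBOHD under each processing setting (rows), with the log2 ratio at 30 min and at 360 min and the difference between the times on the horizontal axes, and filled points for an adjusted p under 0.05. At 30 min the point is open in 1 setting, without replicate 2 of 30 min, and the difference lies below 0 in every setting that gave a value.

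The normalized levels of each channel give RBOHD in unwounded and in wounded shoots at each time, although time and array brightness cannot be told apart. In unwounded shoots its log2 level was 7.19 and 7.27 in the replicates of 30 min and 7.39 in the single value of 360 min. In wounded shoots it was 7.99 and 8.45 at 30 min and 7.55 at 360 min. Wounded shoots of 30 min thus stood above the other 3 conditions, which lay between 7.19 and 7.55. From 30 to 360 min the level changed by 0.16 in unwounded shoots (adjusted p = 0.900) and by -0.67 in wounded shoots (adjusted p = 0.314), neither past the threshold. The change in wounded shoots was -0.90 without replicate 1 of 30 min (adjusted p = 0.0392) and -0.44 without replicate 2 (adjusted p = 0.347).

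RBOHF, which acts beside RBOHD in stomatal and immune responses, was not well above background on any of the 4 arrays of 30 min in either channel, so no ratio is given at that time. At 360 min it was well above background on all 4 arrays, with log2 ratios of 0.05 and 0.62 in replicate 1 and -0.10 and -0.08 in replicate 2. A single array carried the high value, on which the RBOHF level was 8.19 in wounded and 7.58 in unwounded shoots, against 6.34 to 6.70 on the other 3. The gap between the dye-exchanged arrays of that pair, 0.57 in size, exceeded that of 97.4% of all genes. The log2 ratio of 0.12 ± 0.30 (SD, n = 2) was not past the threshold (adjusted p = 0.554). It was 0.33 without replicate 2 of 360 min, with an adjusted p of 0.0268, and -0.09 without replicate 1.

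A change in RBOHF level between 30 and 360 min cannot be read, since the 30 min side is below background. RBOHF was kept for testing only through its signals of 360 min, so no fold is given. Limma's test of the levels gave adjusted p of 0.432 in unwounded and 0.314 in wounded shoots, neither past the threshold. The fitted differences were 0.51 and 0.60, and they were 0.18 and 0.06 with replicate 1 of 360 min left out, which holds the array with the high value. With array medians set equal they were 0.09 and 0.18.

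GLR3.3 and GLR3.6, the pair of channels whose double mutant loses most of the electrical signal between leaves, did not pass the test at either time. GLR3.3 had log2 ratios of 0.13, 0.21, 0.09 and 0.31 on the 4 arrays of 30 min. Their mean was 0.18 ± 0.02 (SD, n = 2) with a 95% interval of 0.03 to 0.34 and an adjusted p of 0.230. At 360 min GLR3.3 was at -0.37, -0.07, -0.02 and 0.07, with replicates at -0.22 and 0.02 and a mean of -0.10 ± 0.17 (adjusted p = 0.458). The difference between the times was -0.28 (adjusted p = 0.145).

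GLR3.6 had log2 ratios of 0.00, -0.66, -0.11 and -0.06 on the arrays of 30 min. The low value came from the array of replicate 1 with the wounded RNA in Cy3, on which the GLR3.6 level was 8.67 in wounded and 9.34 in unwounded shoots, against 6.88 to 7.19 on the other 3 arrays. The dye gap of that pair, 0.66, was above that of 99.0% of all genes, although the spot carried no outlier flag. The mean was -0.21 ± 0.17 (SD, n = 2; adjusted p = 0.253), and -0.09 without replicate 1. At 360 min replicate 1 gave no value because of a flagged spot, and replicate 2 was at 0.13 (n = 1, adjusted p = 0.529).

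None of the other GLR3 genes passed the test. GLR3.1, which also takes part in the electrical signal, was well above background on 1 of 4 arrays at 30 min and 3 of 4 at 360 min, so it was not tested. Its log2 ratios spanned -0.21 to 0.23 on the arrays of 30 min and -0.51 to 0.13 on those of 360 min. GLR3.2 was not well above background on any array of 30 min, and at 360 min it was at 0.09 ± 0.06 (SD, n = 2; adjusted p = 0.311).

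GLR3.4, known as a gene that responds to touch and cold, had ratios of -0.02 to 0.30 at 30 min and of -0.07 to 0.12 at 360 min. Its means were 0.10 ± 0.15 and 0.00 ± 0.08 (SD, n = 2 each), with adjusted p of 0.561 and 0.982.

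GLR3.5 and GLR3.7 are next to each other in the genome annotation. GLR3.5 had log2 ratios of -0.07 to -0.09 on the arrays of 30 min and of -0.04 to -0.13 on those of 360 min. Its means were -0.08 ± 0.01 and -0.10 ± 0.01 (SD, n = 2 each), neither past the threshold (adjusted p = 0.405 and 0.220). GLR3.7 had log2 ratios of 0.03 to 0.24 on the arrays of 30 min and of -0.05 to -0.17 on those of 360 min. Its means were 0.15 ± 0.08 and -0.12 ± 0.03 (SD, n = 2 each), with adjusted p of 0.164 and 0.194. The GLR3.7 difference between the times was -0.27 with a 95% interval of -0.43 to -0.11, and with an adjusted p of 0.0668 it missed the threshold.

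TPC1 was at 0.05, -0.19, -0.11 and -0.10 on the arrays of 30 min and at 0.05, 0.45, 0.07 and 0.08 on those of 360 min. The means were -0.09 ± 0.03 and 0.16 ± 0.12 (SD, n = 2 each; adjusted p = 0.536 and 0.151). The later value owed most to a single array, and without replicate 1 of 360 min it was 0.07. The TPC1 difference between the times was 0.25 (adjusted p = 0.122).

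For the difference of the ratios between the times 0 of the 9 genes passed limma's test, while 2.56% of all 19145 genes were called higher and 4.83% lower at 360 than at 30 min. Unadjusted, 5 of the 9 had a p under 0.05, namely GLR3.3, GLR3.6, GLR3.7, RBOHD and TPC1, against 21.7% of all genes. The median difference of the 9 was -0.02.

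The level of each gene was also compared between the times within unwounded and within wounded shoots. In both comparisons 0 of the 9 genes passed limma's test, where 2.65% of all genes were called in unwounded shoots (1.26% higher and 1.38% lower at 360 min) and 5.02% in wounded shoots (2.02% higher and 3.00% lower). Unadjusted, 2 had a p under 0.05 in unwounded shoots (GLR3.5 and GLR3.6) and 4 in wounded shoots (GLR3.3, GLR3.5, RBOHD and RBOHF), against 12.4% and 13.8% of all genes. For RBOHF, as for GLR3.2, the 30 min side was not above background and the gene was kept only through 360 min. Its p is therefore not read as a change in level. GLR3.5 went from 7.56 and 7.11 to 6.70 and 6.83 in unwounded shoots and from 7.48 and 7.02 to 6.59 and 6.75 in wounded shoots. These differences were -0.57 and -0.58, with adjusted p of 0.307 and 0.255. They were -0.34 and -0.35 without replicate 1 of 30 min, and -0.79 and -0.81 without replicate 2, both then past the threshold (adjusted p = 0.0122 and 0.0147).

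GLR3.3 went from 6.83 and 6.91 to 6.60 and 6.57 in unwounded shoots and from 7.0 and 7.11 to 6.38 and 6.59 in wounded shoots. Its differences were -0.29 (adjusted p = 0.689) and -0.57 (adjusted p = 0.257). TPC1 went from 9.34 and 9.28 to 8.84 and 8.97 in unwounded shoots, a difference of -0.40 (adjusted p = 0.503), and from 9.27 and 9.18 to 9.09 and 9.05 in wounded shoots, a difference of -0.15 (adjusted p = 0.906). GLR3.6 differed by -0.92 in unwounded shoots (adjusted p = 0.258) and by -0.58 in wounded shoots (adjusted p = 0.467), with 1 replicate at 360 min. Without replicate 1 of 30 min, which holds the bright spot, these were -0.42 and -0.21, and without replicate 2 of 30 min they were -1.42 and -0.95, both then past the threshold. GLR3.4 and GLR3.7 differed by -0.35 to -0.07 with adjusted p of 0.637 to 0.951.

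**Figure D3:**
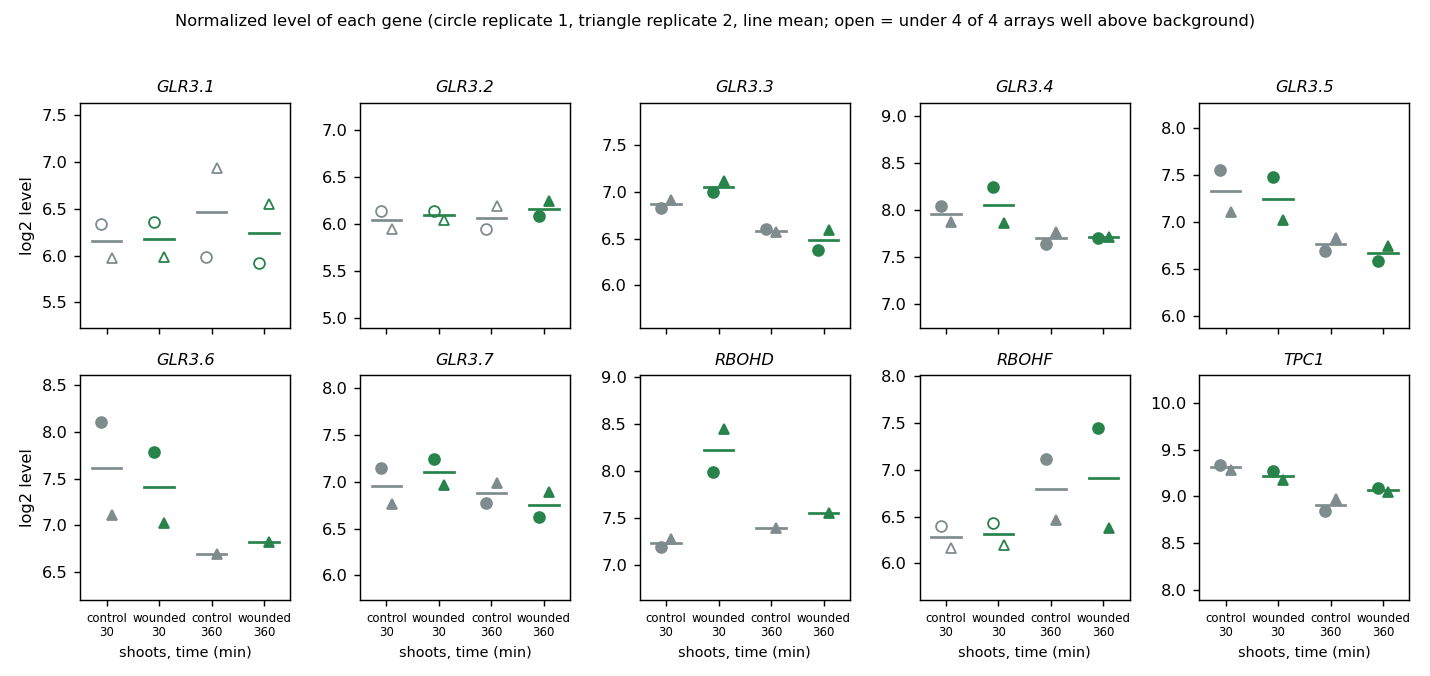
The panels give the normalized log2 level (vertical axis, of the same span in each panel) of each gene in unwounded (grey) and wounded (green) shoots at 30 and 360 min, with a circle for replicate 1, a triangle for replicate 2 and a line at their mean. RBOHD stands high in wounded shoots of 30 min, at 7.99 and 8.45, and RBOHD and GLR3.6 have 1 value a condition at 360 min.

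The relatives of these channels and oxidases gave no call. Of the 13 other GLR genes, all on the array, 6 could be tested, and 0 passed at 30 min, at 360 min or for the difference in limma's test, with 0 also under an unadjusted p of 0.05. Their log2 ratios spanned -0.16 to 0.06 at 30 min. Of the 8 other RBOH genes 4 could be tested, and again 0 passed in any of the 3 comparisons and 0 had an unadjusted p under 0.05, with ratios of -0.05 to 0.04 at 30 min. On no array of 30 min were 5 of the other GLR and 3 of the other RBOH genes well above background in either channel.

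Several listed regulators of the oxidases were called at 30 min. Of 15 tested genes for kinases and calcium sensors that act on RBOHD or RBOHF, 5 rose and 1 fell. Of all genes 4.52% were called higher and 2.16% lower at that time. The list was chosen with results of these data known. CBL1, a calcineurin B-like calcium sensor that with a CIPK kinase activates RBOHF, rose by 1.22 ± 0.02 (SD, n = 2; adjusted p = 8.40e-05). CPK28, a calcium-dependent kinase that limits the immune burst by promoting turnover of the kinase BIK1, rose by 1.17 ± 0.05 (adjusted p = 0.000981). CPK1 rose by 0.45 ± 0.08 (adjusted p = 0.00620) and CPK4 by 0.41 ± 0.07 (adjusted p = 0.00451), both calcium-dependent kinases. DORN1, the receptor for extracellular ATP, rose by 0.28 ± 0.04 (adjusted p = 0.0354), although its unwounded channel cleared the background on 3 of 4 arrays only. That call was lost without background correction, with outlier spots kept, with the wounded RNA in Cy3 only and with the replicate block, and DORN1 was at 0.76 on the authors' log ratios. CRK2, a receptor-like kinase that acts on RBOHD, fell by 0.25 on the log2 scale (adjusted p = 0.0199), a call that was lost on the authors' log ratios and with either dye orientation alone. BIK1 itself was at 0.09 and CPK5, a kinase tied to RBOHD in signal spread, at 0.17, neither past the threshold. The median of the 15 genes was 0.09.

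Among 17 other calcium channels, pumps and exchangers 4 rose and 0 fell at 30 min, and the median was 0.06. The shares over all genes were 4.52% higher and 2.16% lower. OSCA1.3, a calcium channel of stomatal immunity, rose by 1.03 ± 0.03 (SD, n = 2; adjusted p = 0.000251). ACA10, a plasma membrane calcium pump, rose by 0.36 ± 0.04 (adjusted p = 0.00569), ACA11, a vacuolar calcium pump, by 0.35 ± 0.01 (adjusted p = 0.00545), and MCA2, linked to mechanical stimuli, by 0.27 ± 0.02 (adjusted p = 0.0136), the last lost with the wounded RNA in Cy3 only. Beside those same shares of all genes, 2 of 9 genes for proton pumps, GLR sorting and danger signals rose. These were the receptors of the Pep danger peptides, PEPR1 at 1.15 ± 0.07 (adjusted p = 0.000220) and PEPR2 at 0.43 ± 0.02 (adjusted p = 0.00715). The unwounded channel of PEPR2 also cleared the background on 3 of 4 arrays, and PEPR2 was at 1.22 on the authors' log ratios and at 0.26 without background correction. The cornichon homologs CNIH1 and CNIH4, which sort GLR proteins, were at 0.01 and -0.11, and the plasma membrane proton pump AHA1 was at 0.04, none past the threshold.

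Over these 5 lists 12 of 51 tested genes (23.5%) were called at 30 min, 11 of them higher, where 6.69% of all genes were called in either direction. On the authors' log ratios the 11 that rose were at 0.42 (MCA2) to 1.92 (CBL1). The lists were chosen with results of these data known. With either replicate of 30 min left out, 3 of the 12 calls held, those of CBL1, OSCA1.3 and PEPR1.

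At 360 min 3 of the 51 genes (5.88%) were called, against 7.30% of all genes. ANN1, a calcium-binding annexin, rose by 0.40 ± 0.01 (SD, n = 2; adjusted p = 0.0131). CNGC2, a cyclic nucleotide-gated calcium channel, fell by 0.37 on the log2 scale (adjusted p = 0.0269), and ACA4, a vacuolar calcium pump, fell by 0.22 (adjusted p = 0.0305). None of these 3 calls held on the authors' log ratios or when 360 min was fitted alone. For 360 min, leaving out a replicate of 30 min gives that same fit and is no separate check. ACA4 was also lost with plain background subtraction, with normexp at offset 16, with either dye orientation alone and with the replicate block. Its call was lost too without either replicate of 360 min. CNGC2 was lost with the wounded RNA in Cy3 only and without replicate 2, and ANN1 with median centring in place of loess.

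**Figure D4:**
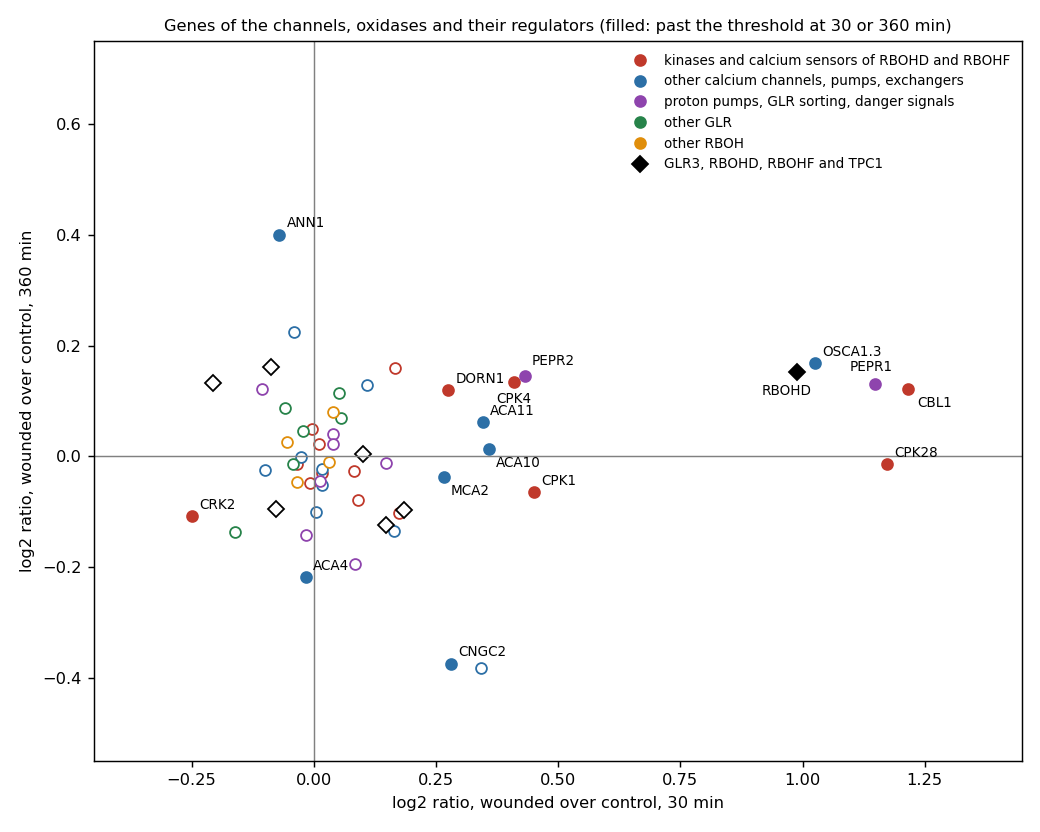
Each point is a gene of the 5 lists (coloured circles) or of the GLR3, RBOH and TPC1 genes (black diamonds), with its log2 ratio of wounded over unwounded shoots at 30 min on the horizontal and at 360 min on the vertical axis, filled where the gene passed the threshold at either time. Genes not above background on any array of 30 min are left out, and RBOHD at 0.99 and 0.15 lies beside OSCA1.3, PEPR1, CBL1 and CPK28.

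The pattern of RBOHD over its 7 unflagged arrays was most like those of AT5G16200, ILL6 and OSCA1.3 among 17444 genes with a value on every array. The root mean square difference of their log2 ratios from RBOHD was 0.14, 0.15 and 0.15, where the median over all genes was 0.78. AT5G16200 was at 1.1 at 30 min (adjusted p = 0.00138) and at 0.20 at 360 min (adjusted p = 0.245). ILL6, an amidohydrolase that cleaves jasmonate conjugates, was at 0.82 (adjusted p = 0.00358) and 0.02 (adjusted p = 0.909).

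JAZ10 and ZAT12 are read as outputs of the electrical and the reactive oxygen signal. On these arrays ZAT12, a zinc finger gene, rose by 0.34 ± 0.01 at 30 min (SD, n = 2; adjusted p = 0.00536), and JAZ10 by 1.12 ± 0.21 (adjusted p = 0.0121). The arrays of replicate 1 gave 1.55 and 0.39 for JAZ10. Both calls were lost with either replicate of 30 min left out, and that of JAZ10 also with the wounded RNA in Cy3 only. Vascular markers were set beside the channels, since GLR3.3 is known from phloem and GLR3.6 from cells next to xylem. At 30 min 0 of 5 phloem and 0 of 5 xylem markers passed, and their log2 ratios lay between -0.22 and 0.06. At 360 min 0 of 5 xylem markers passed and 1 of 5 phloem markers, PP2-A1, rose by 0.47 (adjusted p = 0.00920). The summed level of the phloem markers was 1984 to 2133 in unwounded and 2165 to 2520 in wounded shoots at 360 min, and 2380 to 2989 and 2133 to 2709 at 30 min. Of the shoot markers, RBCS1A was saturated on all 8 arrays, so that no ratio is read from it. At 360 min LHCB1.1 rose by 0.69 with 0 saturated spots (adjusted p = 0.00896), and RCA, saturated on 1 of 4 arrays, fell by 0.29 on the log2 scale (adjusted p = 0.0312). The calls of PP2-A1, LHCB1.1 and RCA were lost on the authors' log ratios and when 360 min was fitted alone. Their part in the values of the channel genes was not tested.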

How the data were processed

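Per the submitters' processing notes, spots were quantified by Agilent Feature Extraction 7.1.1. The scanner files as deposited give mean and local background intensity per spot and channel on a linear scale, not normalized. They also hold a log10 ratio of Cy5 over Cy3, per the file headers background-subtracted and dye-normalized. The series matrix of the authors equals that log10 ratio on every array (largest difference 0), with column medians of -0.00183 to 0.000378. The genome build behind the array's probes was not given in the sources used here, so no coordinates are printed.

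Intensities were corrected with normexp (offset 50, which pulls ratios of dim genes toward 0), normalized by loess within arrays with control spots and flagged outliers at weight 0, and turned to wounded over control (limma 3.58.1, R 4.3.3). Flagged spots were left out (13 to 888 per array), and the replicate of that spot then had no value for its gene. Genes well above background (2.6 background deviations, per the file headers) in every measurement of at least 1 of 4 conditions were kept, 19178 of 21500, each with 1 probe. The 4 replicates entered a model with 1 mean per time in lmFit and eBayes, 2-sided, with Benjamini-Hochberg adjustment over all genes at 0.05. A gene with all 4 values had 2 residual and 3.58 prior degrees of freedom. RBOHD and GLR3.6, with 1 value at 360 min, had fewer residual ones. The spread was estimated over both times together. Levels of each channel were quantile normalized over average intensities and fitted alike. The summed marker levels are sums of such levels on the linear scale.

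The number of arrays limits the precision. Each scan extraction batch held 1 pair, so batch and replicate cannot be told apart. Same-numbered replicates of the times did not deviate together (r = -0.03 over 17444 genes), so no pairing was used. The steps were tested on simulated data. Symbols, and which genes neighbour each other, came from a RefSeq gene table of TAIR10.1, where 98.6% of codes matched. All 10 genes are named whatever their p, of the other lists every gene past the threshold at either time or for the difference, and the 3 genes most like each called gene. The genes and lists were chosen with earlier results of these data known. Alternatives varied background correction, normalization, the filter, outliers, the prior, dyes, the block and the replicates.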

Additional observations from a re-analysis of the deposited data

Results flagged for a closer look

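None of the 10 channel and oxidase genes had a ratio that differed between the times past the threshold. Of the 51 tested genes of the 5 lists, 11 (21.6%) passed limma's test for a difference of the wounded over control log2 ratio between 360 and 30 min. Of all genes 7.39% passed, and the lists were chosen with results of these data known. Among the markers 2 of 5 phloem markers passed, as did 2 of 5 shoot markers, the latter from saturated spots. None of the xylem and root markers passed, nor did JAZ10 or ZAT12. The differences, 360 minus 30 min, were -1.19 for CPK28, -1.09 for CBL1 and -0.51 for CPK1 among the kinases and sensors. Among the channels, pumps and exchangers they were -0.86 for OSCA1.3, -0.72 for CAX1, -0.66 for CNGC2, -0.34 for ACA10, -0.30 for MCA2, -0.28 for ACA11 and 0.47 for ANN1. PEPR1 was at -1.02. Of these, CAX1 passed at neither time alone. Among the phloem markers the differences were 0.64 for PP2-A1 and 0.32 for SUC2. The values of 0.83 for LHCB1.1 and 0.34 for RBCS1A of the shoot came from saturated spots, on all 4 arrays of 30 min for LHCB1.1 and on all 8 arrays for RBCS1A, and are not read as differences. With either replicate of 30 min left out, 2 of the 11 differences of the channels, kinases and receptors held, those of CBL1 and PEPR1.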

How the results depend on the processing

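RBOHD at 30 min kept its direction under all 19 alternatives and its call under 18, with log2 ratios of 0.68 to 1.64. For 30 min, fitting each time alone and leaving out either replicate of 360 min are the same fit. They are therefore not separate checks. The number of the 10 genes called was otherwise 2 at 30 min with each time fitted alone (with GLR3.3) and with the pair as a random block (with GLR3.7), and 0 to 2 with a replicate left out. At 360 min it was 0 to 1 with a replicate left out. For the difference it was 1, RBOHD, under plain background subtraction, normexp with offset 16, the authors' log ratios, the stricter filter, outlier spots kept, the replicate block and the other array of a pair. It was 2 with wounded RNA in Cy5 only, 3 with the random block, and 0 to 3 with a replicate left out. For the levels it was 1 in unwounded shoots with array medians set equal, and 0 to 2 with a replicate left out in either kind of shoot. Of 475 values of genes not called in the ratios, 21 passed the threshold and 19 changed sign.

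Over all genes the calls at 30 min moved from 1282 to 2096 with the random block, to 779 with Cy3 only and to 304 to 1680 with a replicate left out. At 360 min they moved from 1398 (590 higher, 808 lower) to 843 with plain subtraction, 872 with offset 16, 130 on the authors' ratios (74 higher, 56 lower), 79 with 360 min fitted alone, 2856 with the random block, 2353 with Cy5 only, 190 with Cy3 only and 79 to 1317 with a replicate left out. For the difference they moved from 1414 to 716 on the authors' ratios, 2929 with the random block, 502 with Cy3 only and 169 to 1720 with a replicate left out. In unwounded shoots they moved from 507 to 937 with the replicate block and to 219 to 2467 with a replicate left out, and in wounded shoots from 961 to between 416 and 2709 with a replicate left out. RBCS1A at 360 min, saturated on every array, turned to -0.63 with Cy5 only, and neither value is read as a change. With a single replicate left at a time, that replicate is assumed to vary like the others. A call lost there does not show that it rested on the replicate left out. The replicate block changed no other call of the 10 genes. RBOHD, with 1 value at 360 min, had no spread of its own left under that block. Its adjusted p there rests on limma's prior and is not read as stronger. RBOHD and GLR3.6 gave no value at 360 min without replicate 2. Dim signals limit GLR3.1, GLR3.2 and RBOHF at 30 min.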
